A study of Mus musculus with 18 samples.

Results

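The miR-34 and miR-449 miRNAs are a seed family, and 4 of its mature strands are described here in mouse C2C12 cells: mmu-miR-34a-5p, mmu-miR-34b-5p, mmu-miR-34c-5p and mmu-miR-449a-5p, written below without the species prefix. They were taken by name from a deposited table of 2042 miRNA names, in which 11 rows carry a miR-34 or miR-449 name. The study concerns the miRNAs held back by the MRTF-A 3'UTR. MRTF-A (myocardin-related transcription factor A, gene Mrtfa) is a transcriptional coactivator that works through serum response factor. In miTRAP, an affinity purification, a bait RNA tagged with MS2 hairpins is immobilised and incubated with lysate, and RNA bound to it is eluted and sequenced. The myoblast line C2C12, which forms myotubes in medium with little serum, was the source of all 18 libraries, in 6 groups of 3. The groups were eluates of the MRTF-A bait from differentiated and from undifferentiated cells, eluates of an MS2 control from the same states, and input RNA of the lysates from the same states. All cells were grown in DMEM with 10% FCS, and differentiated cells were kept 7 days in DMEM with 2% HS. The labels repeat the differentiation medium for undifferentiated samples and call all samples myoblasts, so titles and a separate differentiation label were used for the state. They do not give the sequence or species of the bait, and nothing in them ties the 3 libraries of a group to separate cultures. The p-values therefore measure only a spread between libraries that may be technical. The letters A, B and C name the libraries of each group and pair nothing across groups.

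A miRNA guides Argonaute to a messenger RNA mainly through its seed, bases 2 to 8 from its 5′ end, which pairs with complementary bases in the 3'UTR. Members of a seed family can therefore recognise the same sites. The genes of the miR-34 family are known as direct transcriptional targets of the tumour suppressor p53, and miR-34 represses regulators of the cell cycle and of survival. miR-34b, miR-34c and the miR-449 miRNAs are known for high levels in multiciliated epithelia and in the testis.

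The mature sequences show what the family shares and where it parts. The capitals mark the seed, and miR-449c-5p is included because it carries the same seed and is a row of the table. RefSeq sequences (GRCm38.p6, 5′ to 3′) were matched for 3 of the 4 members, all but miR-34c-5p, and miR-449b was not matched either.
miR-34a-5p: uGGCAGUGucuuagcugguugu
miR-34b-5p: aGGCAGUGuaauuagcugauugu
miR-449a-5p: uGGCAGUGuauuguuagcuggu
miR-449c-5p: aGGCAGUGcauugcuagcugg
Among the 1679 mature names of the RefSeq table, which does not cover miR-34c-5p or miR-449b, these 4 had the seed GGCAGUG. Outside the seed they diverge. Aligned from the 5′ end, miR-34a-5p and miR-449a-5p were identical at 15 of 22 positions, miR-34a-5p and miR-34b-5p at 11 of 22, and miR-34b-5p and miR-449a-5p at 10 of 22. miR-449c-5p was identical to miR-449a-5p at 18 of 21 positions.

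The family comes from 3 loci. miR-34a-5p lies at chr4:150068473-150068494 (plus strand), and its hairpin overlaps an exon of Gm37795, a gene of unsettled type in GENCODE vM21. miR-34b-5p lies at chr9:51103610-51103632 (minus strand). The hairpins Mir34b and Mir34c are 451 bases apart in an intron of Btg4 on its opposite strand, and both are known to be cut from a single primary transcript. miR-449a-5p (chr13:113037549-113037570, plus strand) and miR-449c-5p (chr13:113036008-113036028, plus strand) lie in an intron of Cdc20b on its own strand, as does Mir449b.

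The deposited value of a miRNA in a library is a normalised CPM, in which reads are divided by an effective library size, and whole reads were recovered from it. The MRTF-A eluates held 107165 to 544504 reads each, the shallow MS2 controls 15562 to 39695 and the inputs 294112 to 860828. Normalisation factors were 0.341 to 0.634 in MRTF-A eluates, 1.24 to 2.37 in MS2 controls and 0.701 to 1.48 in inputs, and a CPM of the MRTF-A eluates is thus large relative to the plain share of reads. The MS2 controls were of 2 kinds: human-named miRNAs took over 0.5% of reads in differentiated libraries A and B and undifferentiated library A and less in the other 3. A list of 5 myotube miRNAs summed to 38898 to 57303 CPM in differentiated input, against 225 to 1389 CPM in undifferentiated input, where miR-1a-3p, miR-499-5p and miR-208b-3p had no read.

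With the MRTF-A bait, the family took 7.04 ± 1.37% of all reads from differentiated cells and 7.97 ± 1.51% from undifferentiated cells (SD, n = 3 each). In the MS2 control it took 0.240 ± 0.0640% and 0.164 ± 0.0932%, and in input 0.175 ± 0.0175% and 0.199 ± 0.0371%, in differentiated and undifferentiated cells in that order. miR-34c-5p carried nearly all of it, with 95.5 to 96.9% of the family's reads in the 6 MRTF-A eluates and 71.5 to 87.9% in the 6 inputs. All 4 members had higher values in each MRTF-A eluate than in any MS2 control or input library of the same state.

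**Figure D1:**
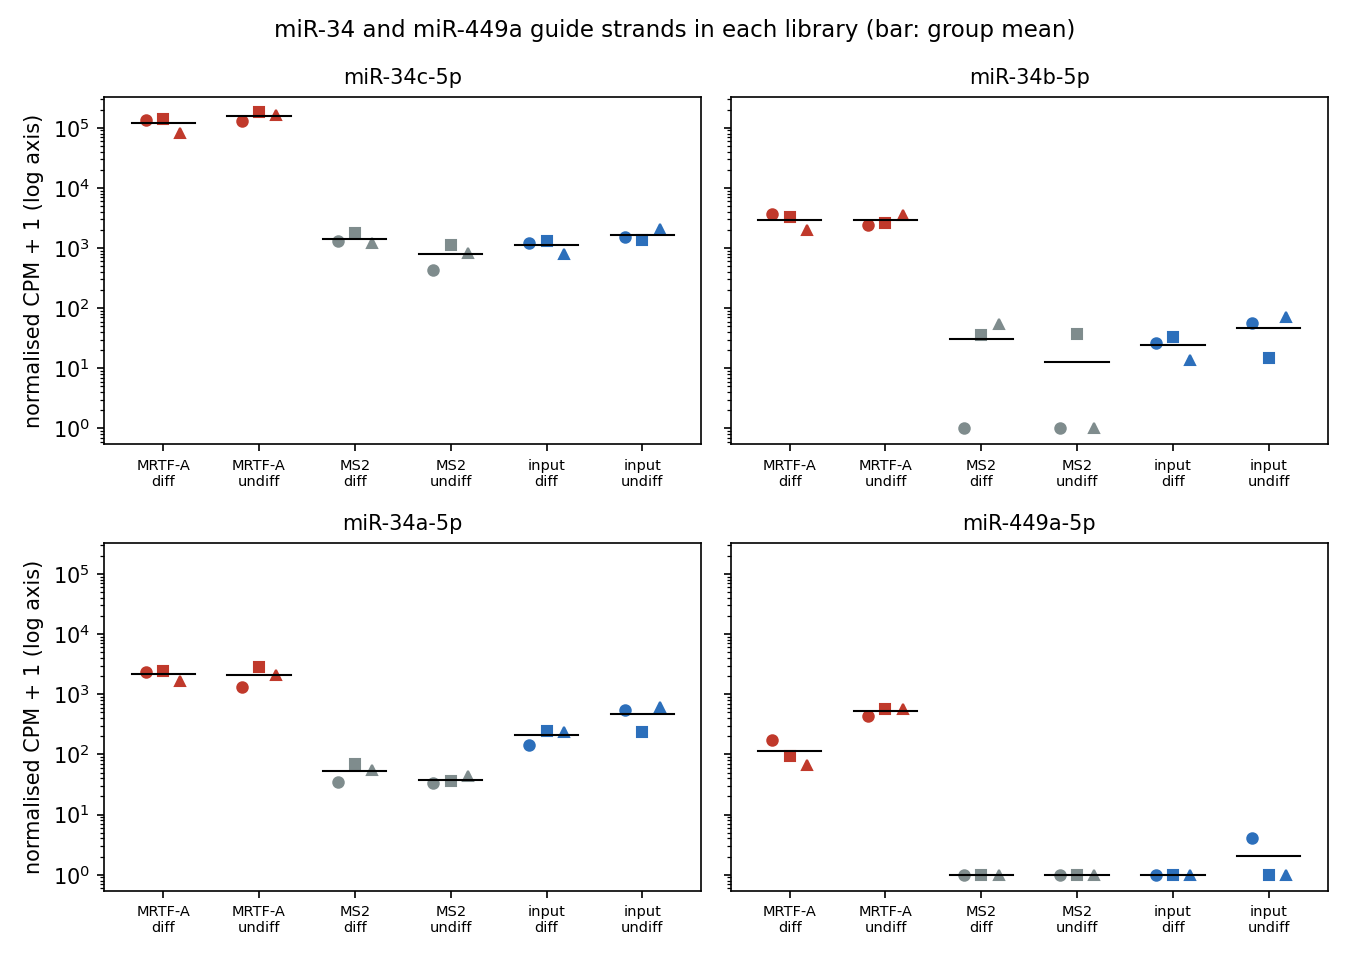
Normalised CPM plus 1 on a log axis for each of the 4 miRNAs in MRTF-A eluates, MS2 controls and input of differentiated (diff) and undifferentiated (undiff) cells. Circles, squares and triangles are libraries A, B and C, and bars are means of 3. The 6 MRTF-A eluates lie above every other library in all 4 panels, and miR-449a-5p had a single read outside them.

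miR-34c-5p was among the most abundant miRNAs that stayed with the bait. It stood at 131854, 139437 and 82526 CPM in MRTF-A eluates A, B and C of differentiated cells, against 1328, 1751 and 1192 CPM in the MS2 controls and 1214, 1308 and 800.1 CPM in input. In undifferentiated cells it stood at 130364, 180405 and 160340 CPM in MRTF-A eluates, against 427, 1128 and 832 CPM in the MS2 controls and 1529, 1361 and 2087 CPM in input. The bait libraries were separated from the others in both states by a wide gap, while the MS2 controls overlapped the inputs in differentiated cells and lay below them in undifferentiated cells. It ranked 4 to 5 among all names in differentiated and 2 to 3 in undifferentiated MRTF-A eluates, and 52 to 63 in input.

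miR-34c-5p, whose MS2 controls also met the filter on low values, rose with the bait over the control in differentiated cells (limma adjusted p under 0.05). There 79.3% of the 169 names tested were called, 57.4% higher and 21.9% lower. The same held in undifferentiated cells, where 60.4% were called, 43.2% higher and 17.2% lower. miR-34a-5p, miR-34b-5p and miR-449a-5p passed that filter only through the MRTF-A eluates, and miR-449a-5p had no read in any control. These miRNAs are therefore not counted here, and their values are given apart. Their limma results over MS2 are no independent result. Folds are on the log2(CPM + 10) scale, which understates the change of low miRNAs, and p-values are adjusted over all names tested. For miR-34c-5p the log2 fold change over MS2 was 6.34 ± 0.37 (SE, limma adjusted p = 3.67e-08) in differentiated cells and 7.70 ± 0.37 (limma adjusted p = 5.09e-09) in undifferentiated cells. The median of all 169 names was 2.37 in differentiated and 1.16 in undifferentiated cells, so the whole table was shifted toward the bait on this scale. When reads were scaled by library totals instead, these medians were 1.18 and -0.25, and the values of miR-34c-5p were 4.90 and 5.81.

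Against input, the bait was compared with what the lysate held. miR-34b-5p passed the filter on low values in this fit only through the MRTF-A eluates, so it is not counted here. miR-34c-5p and miR-34a-5p rose in differentiated cells, where 62% of 305 names were called, 31.1% higher and 30.8% lower. They rose in undifferentiated cells as well, where 68.5% were called, 23.3% higher and 45.2% lower. miR-34c-5p rose by 6.72 ± 0.35 (SE, limma adjusted p = 6.51e-11) in differentiated and by 6.57 ± 0.35 (limma adjusted p = 1.1e-10) in undifferentiated cells, the values 4 and 5 from the top. The median of all names was -0.14 and -1.04 in the same order.

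miR-34b-5p, from the same primary transcript, was far lower in level and close to miR-34c-5p in fold. It stood at 3693, 3222 and 1960 CPM in differentiated MRTF-A eluates, against 0, 34.3 and 54.2 CPM in the MS2 controls and 25.7, 31.9 and 12.9 CPM in input. In undifferentiated cells it stood at 2453, 2625 and 3554 CPM in MRTF-A eluates, against 0, 35.6 and 0 CPM in the MS2 controls and 54.8, 13.9 and 69.6 CPM in input. The MRTF-A eluates stood apart, while the MS2 controls, with 3 reads in each state, overlapped the inputs. Its log2 fold change over input was 6.46 ± 0.70 (SE, limma adjusted p = 5.23e-07) in differentiated and 5.84 ± 0.70 (limma adjusted p = 1.33e-06) in undifferentiated cells. Over MS2 the pooled reads gave a ratio of 97.2 (95% exact interval 33.2 to 472) in differentiated cells and 154 (52.5 to 749) in undifferentiated cells. Such intervals and all bounds from reads cover counting error only. The limma log2 fold changes over MS2 were 6.55 ± 0.73 and 7.42 ± 0.73 in the same order. The value in undifferentiated cells was 9.74 with a pseudocount of 1 and 5.59 with 50. In both fits miR-34b-5p passed the filter on low values only through the MRTF-A eluates. Its limma values over input and over MS2 are therefore no independent result.

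miR-34a-5p was second in input but gained less with the bait. It stood at 2376, 2439 and 1682 CPM in differentiated MRTF-A eluates, against 33.2, 68.7 and 54.2 CPM in the MS2 controls and 141, 248 and 234 CPM in input. In undifferentiated cells it stood at 1334, 2808 and 2054 CPM in MRTF-A eluates, against 32.8, 35.6 and 42.7 CPM in the MS2 controls and 551, 236 and 620 CPM in input. The MRTF-A eluates lay above both other kinds of library in each state, and in each state the input lay above the MS2 control. Its rise over input was 3.34 ± 0.41 (SE, limma adjusted p = 2.08e-06) in differentiated and 2.16 ± 0.41 (limma adjusted p = 0.000184) in undifferentiated cells, ranks 42 and 55 of 305. Its rise over MS2 was 5.16 ± 0.39 in differentiated cells (limma adjusted p = 1.95e-07), against 5 control reads, and 5.40 ± 0.39 in undifferentiated cells (limma adjusted p = 1.24e-07), against 6. In the fit of the eluates miR-34a-5p passed the filter on low values only through the MRTF-A eluates. Its limma values over MS2 are therefore no independent result.

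miR-449a-5p was seen almost solely in the bait. It had 40, 28 and 13 reads in the differentiated and 28, 69 and 45 reads in the undifferentiated MRTF-A eluates, no read in any MS2 control or differentiated input, and 1 read in undifferentiated input (library A). The levels were 174, 93.3 and 66.9 CPM in differentiated and 429, 573 and 567 CPM in undifferentiated MRTF-A eluates, and the states did not overlap. Against a floor of 3 reads per library, it was at least 19.0-fold higher than input in differentiated cells. Over the MS2 control the same floor gave at least 1.18-fold in differentiated and at least 7.92-fold in undifferentiated cells. Against the single read of undifferentiated input the pooled ratio was 692 (95% exact interval 122 to 27539). The limma log2 fold changes depend on the pseudocount for a miRNA without control reads and are no independent result. They were 3.51 ± 0.40 (limma adjusted p = 6.02e-06) and 5.72 ± 0.40 (limma adjusted p = 1.1e-07) over MS2, and 3.51 ± 0.32 and 5.60 ± 0.32 over input, with differentiated cells first.

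The rise of miR-34c-5p over MS2 kept its direction with either kind of control alone. With MS2 controls limited to those low in human-named reads, the log2 fold changes of miR-34c-5p were 6.58 in differentiated and 7.31 in undifferentiated cells. With those high in them, they were 6.23 and 8.48. miR-34a-5p and miR-34b-5p kept their direction with either kind as well, which is no independent result given the filter. The first of these fits has 1 control library in differentiated cells and the second 1 in undifferentiated cells, and a lone library is assumed to vary like the other groups.

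**Figure D2:**
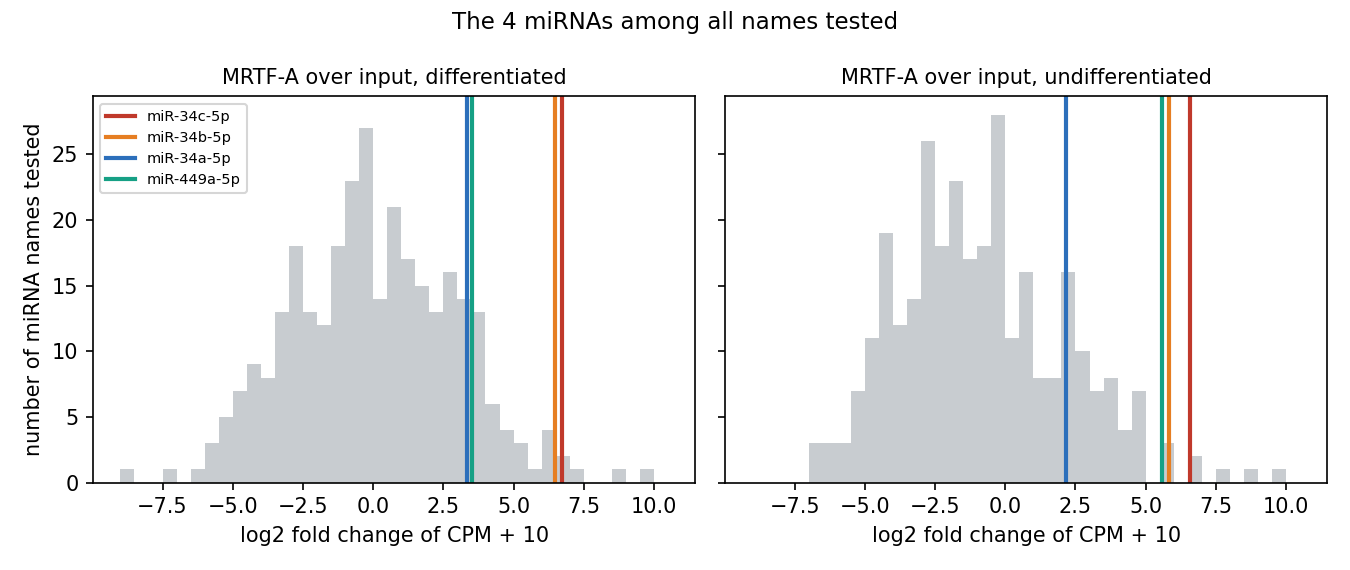
Histograms of the log2 fold change of MRTF-A eluates over input for all 305 names tested, with the 4 miRNAs as vertical lines. miR-34c-5p and miR-34b-5p stand in the right tail in both states, and miR-34a-5p stands inside the bulk of rising names at 3.34 in differentiated and 2.16 in undifferentiated cells.

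Ratios of reads within a library do not depend on scaling, and they separated miR-34a-5p from miR-34c-5p. Per 100 reads of miR-34c-5p there were 1.80, 1.75 and 2.04 reads of miR-34a-5p in differentiated MRTF-A eluates, against 11.6, 19.0 and 29.3 in input. In undifferentiated cells there were 1.02, 1.56 and 1.28 in MRTF-A eluates, against 36.1, 17.3 and 29.7 in input. The groups did not overlap in either state. The MS2 controls lay between, with 2.50 to 4.55 in differentiated and 3.16 to 7.69 in undifferentiated cells, from 1 to 3 reads of miR-34a-5p per library.

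The difference from input was -3.33 on the log2 scale in differentiated and -4.38 in undifferentiated cells, a mean of 14.5-fold lower in MRTF-A eluates (exact 2-sided permutation of libraries within each state, p = 0.005, the smallest that the 400 arrangements allow, Benjamini-Hochberg adjusted p = 0.0075 over 3 ratios). It was lower in 6 of 6 MRTF-A eluates. This test and its 3 ratios were chosen after the values were seen.

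The ratio of miR-34b-5p to miR-34c-5p did not separate. There were 2.80, 2.31 and 2.37 reads of miR-34b-5p per 100 of miR-34c-5p in differentiated MRTF-A eluates, against 2.12, 2.44 and 1.61 in input. In undifferentiated cells there were 1.88, 1.46 and 2.22 in MRTF-A eluates, against 3.59, 1.02 and 3.33 in input. The ranges overlapped in both states, and the log2 difference from input was 0.23 in differentiated and -0.40 in undifferentiated cells, a mean of -0.08 (exact 2-sided permutation, p = 0.785, adjusted p = 0.785). miR-34b-5p and miR-34c-5p are close copies, and how the authors assigned reads matching both is not given in the sources used here, so the split of reads between them is uncertain, and its part in this ratio was not tested.

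**Figure D3:**
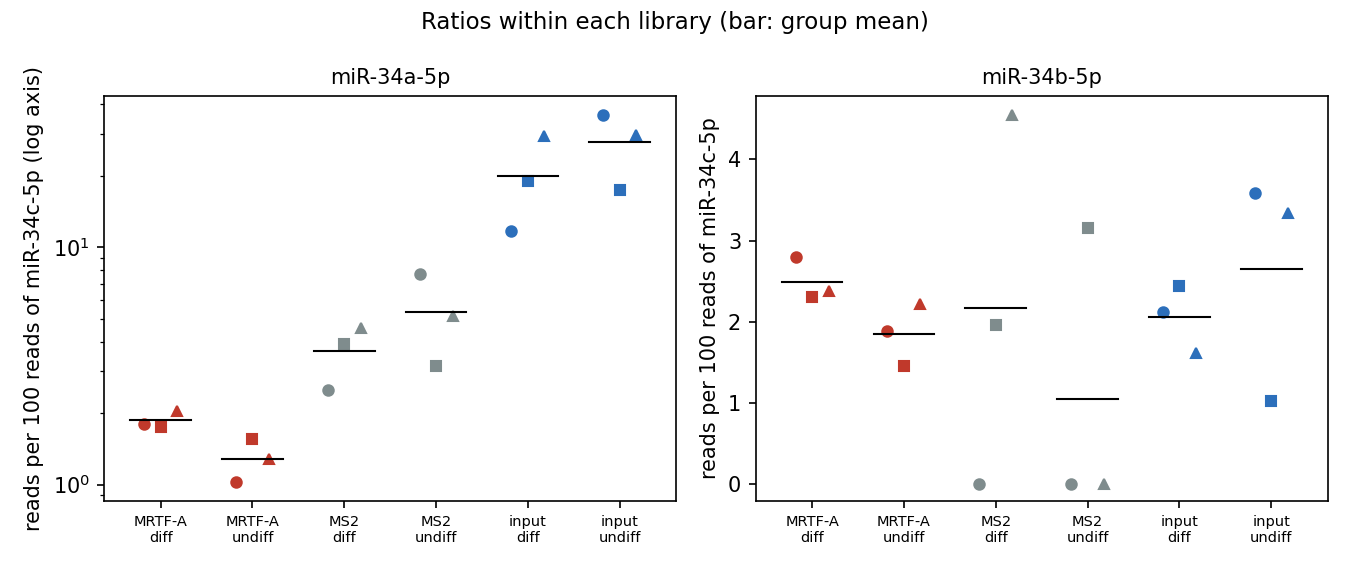
Reads of miR-34a-5p (left, log axis) and of miR-34b-5p (right, linear axis) per 100 reads of miR-34c-5p in each library, with circles, squares and triangles for libraries A, B and C and bars for the mean of 3. For miR-34a-5p the MRTF-A eluates lie between 1.02 and 2.04 and the inputs between 11.6 and 36.1, and for miR-34b-5p the groups overlap.

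The arms of the miR-34b hairpin parted in the same libraries. The 3p arm carries another seed, shown in capitals (RefSeq GRCm38.p6, chr9:51103574-51103595, minus strand).
miR-34b-3p: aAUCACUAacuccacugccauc
In input the 3p arm was the more abundant, at 80.8, 84.6 and 38.7 CPM in differentiated and 183, 142 and 273 CPM in undifferentiated cells, and the 5p arm had 34.3 ± 3.10 and 21.8 ± 10.6 reads per 100 reads of it (SD, n = 3 each). In the MRTF-A eluates the order was turned round, with 2195 reads of the 5p arm to 18 of the 3p arm in differentiated and 758 to 8 in undifferentiated cells. The 5p to 3p ratio was higher in MRTF-A eluates than in input by 8.81 on the log2 scale, averaged over the states (exact 2-sided permutation, p = 0.005, the smallest possible, adjusted p = 0.0075), and higher in 6 of 6. The reads of the 5p arm depend on the uncertain split between miR-34b-5p and miR-34c-5p. The part of that split in the change of order was not tested.

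The 3p arm itself did not rise with the bait. Its limma log2 fold change over input was -2.55 ± 0.61 in undifferentiated cells (limma adjusted p = 0.00126), a call lost with edgeR, DESeq2 and RLE factors (-1.40, adjusted p = 0.061). In differentiated cells it was -1.24 ± 0.61 (limma adjusted p = 0.0843), passing with library totals (-2.06, adjusted p = 0.0018). miR-34b-3p passed the filter on low values only through the inputs, where it was high, so these limma values are no independent result. No read of it was found in the MS2 controls, which are too shallow to place it against them.

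**Figure D4:**
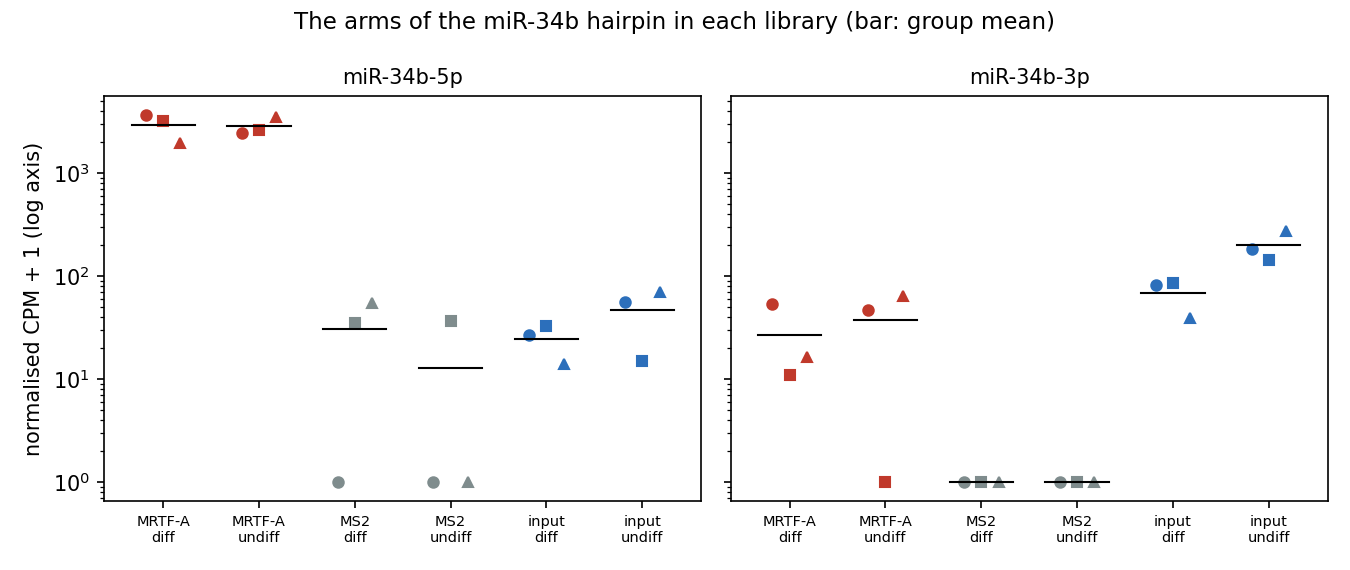
Normalised CPM plus 1 on a log axis for the 5p arm (left) and 3p arm (right) of the miR-34b hairpin in each library, with circles, squares and triangles for libraries A, B and C and bars for the mean of 3. The 5p arm lies higher in the MRTF-A eluates than in input, whereas the 3p arm lies at 0 to 63.0 CPM in the MRTF-A eluates and at 38.7 to 273 CPM in input. The split of reads between miR-34b-5p and miR-34c-5p is uncertain.

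The other rows of the family were scarce. miR-449c-5p, with the family seed, had 8, 10 and 2 reads in differentiated and 19, 43 and 9 reads in undifferentiated MRTF-A eluates, no read in differentiated input and 5, 5 and 7 reads in undifferentiated input. Against a floor of 3 reads per library it was at least 4.46-fold higher than differentiated input. Against the reads of undifferentiated input the pooled ratio was 20.4 (exact interval 11.9 to 36.9). The limma log2 fold changes over input were 1.77 ± 0.38 (limma adjusted p = 0.000644) in differentiated and 3.35 ± 0.38 (limma adjusted p = 8.31e-07) in undifferentiated cells. The value in differentiated cells depends on the pseudocount, as that input had no read. miR-449c-5p was highest in undifferentiated MRTF-A eluates and passed the filter on low values only through them. Neither limma value is therefore taken as an independent result. miR-449c-5p was thus the more abundant of the miR-449 rows in undifferentiated input, with 17 reads to 1 of miR-449a-5p, while the bait held 71 reads of it to 142 of miR-449a-5p. miR-34c-3p had 0 and 2 reads in the differentiated and undifferentiated MRTF-A eluates and 7 and 18 in input, miR-34a-3p none in the eluates and 3 and 5 in input, and miR-449b 8 and 2 in the eluates and 4 and 3 in input. miR-449a-3p and miR-449c-3p had no read in any library.

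In the cells themselves, differentiation was compared in input. Of the 3 members tested in input, 1 fell and 0 rose, where 62.3% of 313 names were called, 46.3% lower and 16% higher, and miR-449a-5p was too scarce to test. miR-34a-5p averaged 208 ± 58.0 CPM in differentiated and 469 ± 205 CPM in undifferentiated input (SD, n = 3 each), a log2 fold change of -1.06 ± 0.41 (limma adjusted p = 0.0357), and differentiated library B at 248 CPM lay above undifferentiated library B at 236 CPM. The call was lost without the filter, with library totals (-0.57, adjusted p = 0.206), RLE factors, TMM factors of the inputs alone, edgeR and DESeq2, and when any 1 of 5 of the 6 libraries was left out (adjusted p 0.00235 to 0.357 over all alternatives). The authors' deposited table gives it a log2 fold change of -1.18 with an FDR of 0.0596. Fewer cells with a miRNA and less of it per cell cannot be told apart in such bulk RNA.

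miR-34c-5p averaged 1107 ± 270 CPM in differentiated and 1659 ± 380 CPM in undifferentiated input (SD, n = 3 each), with a log2 fold change of -0.59 ± 0.33 (limma adjusted p = 0.134). The median of all names was -0.64 in this comparison, and the value turned to 0.06 with RLE factors, under which the median was -0.11. miR-34b-5p averaged 23.5 ± 9.71 CPM in differentiated and 46.1 ± 28.8 CPM in undifferentiated input, with -0.62 ± 0.43 (limma adjusted p = 0.234). That value was -1.14 without undifferentiated library B (adjusted p = 0.0144) and -0.28 without undifferentiated library C. miR-34b-3p fell by 1.44 ± 0.39 on the log2 scale (limma adjusted p = 0.00627), lost with DESeq2 (-0.84, adjusted p = 0.0562).

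Between the states, the bait held less miR-449a-5p in differentiated cells, and the miR-34 members did not pass the test. Among the MRTF-A eluates 0 of the 3 miR-34 members were called, where 38.5% of 169 names were called, 14.8% lower and 23.7% higher. miR-449a-5p averaged 112 ± 56.0 CPM in differentiated and 523 ± 81.4 CPM in undifferentiated MRTF-A eluates (SD, n = 3 each). It passed the filter on low values only through the undifferentiated MRTF-A eluates, where it was high, so it is not counted here. Its fitted log2 fold change of -2.22 ± 0.40 (limma adjusted p = 0.000828) is for that reason no independent result. Per 100 reads of miR-34c-5p, it had 0.0669 to 0.132 reads in differentiated and 0.318 to 0.354 reads in undifferentiated MRTF-A eluates, without overlap. miR-449c-5p averaged 26.2 ± 13.8 CPM in differentiated and 254 ± 126 CPM in undifferentiated MRTF-A eluates, and it was not tested in the fit of the eluates. In the cells, the 17 reads of miR-449c-5p and the 1 of miR-449a-5p in input all came from undifferentiated libraries.

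miR-34c-5p (-0.44 ± 0.37, limma adjusted p = 0.388), miR-34a-5p (0.11 ± 0.39, adjusted p = 0.885) and miR-34b-5p (0.01 ± 0.73, adjusted p = 1) did not pass between the MRTF-A eluates of the states, and a call for miR-34c-5p appeared with DESeq2 (-0.94, adjusted p = 0.0349, against up to 0.782 elsewhere). The test of the difference itself, bait over MS2 in differentiated minus undifferentiated cells, passed for 0 of the 3 miR-34 members (limma adjusted p, 1 of 3 at an unadjusted p under 0.05, 0 with edgeR and 1 with DESeq2), where 13% of names were called, 4.73% lower and 8.28% higher. For miR-449a-5p the gain over MS2 is known only as a lower bound in each state, so a difference in gain could not be tested. Its fitted value of -2.22 restates the difference between the MRTF-A eluates, as both controls had no read. miR-34c-5p had -1.36 ± 0.53 (adjusted p = 0.101). It passed in some alternatives, among them RLE factors (-1.74, adjusted p = 0.0431) and DESeq2 (-1.57, adjusted p = 0.0464), and its adjusted p reached 0.443 in others. Its difference between the states also varied with the kind of MS2 control, being wider with those high in human-named reads. miR-34b-5p had -0.87 ± 1.03 (adjusted p = 0.611) and miR-34a-5p -0.25 ± 0.55 (adjusted p = 0.848).

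Lists of miRNAs known from other cell types were summed in the same libraries. A list of 10 epithelial miRNAs, of which miR-449a-5p, miR-449b and miR-449c-5p are part, summed to 113 to 218 CPM in differentiated and 693 to 955 CPM in undifferentiated MRTF-A eluates, to 27.1 to 137 and 0 to 65.6 CPM in the MS2 controls, and to 29.4 to 43.2 and 34.8 to 113 CPM in input. Most of the sums in MRTF-A eluates came from these miR-449 rows. miR-449a-5p had 66.9 to 174 CPM in differentiated and 429 to 573 CPM in undifferentiated MRTF-A eluates. For miR-449c-5p these were 10.3 to 34.9 and 113 to 357 CPM. miR-200c-3p and miR-429-3p of this list had no read in MRTF-A eluates, MS2 controls or input of either state. By contrast, miR-205-5p had reads in every group, and miR-141-3p, miR-200a-3p, miR-200b-3p and miR-203-3p had reads in some groups. A list of 6 blood miRNAs had no read in any eluate and at most 5.56 CPM in an input. A list of 6 neural miRNAs summed to 60.2 to 126 CPM in differentiated and 743 to 1208 CPM in undifferentiated input, and to at most 138 CPM in an eluate, with miR-124-3p at 0 throughout. miR-126a-3p and miR-126a-5p, endothelial miRNAs, had no read in differentiated input or in any MRTF-A eluate. Both had reads in undifferentiated input, and miR-126a-3p also had reads in the undifferentiated MS2 controls. With miR-143-3p and miR-145a-5p, their list summed to 23202 to 52914 CPM in differentiated and 27373 to 28120 CPM in undifferentiated input. That list summed to 4020 to 4604 CPM in differentiated and 1180 to 1525 CPM in undifferentiated MRTF-A eluates, and to 3221 to 4387 and 1519 to 2232 CPM in the MS2 controls. The part of these lists in the results was not tested.

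The annotated 3'UTR of Mrtfa was searched for the family seed, since it is the region the bait is named after. In the longest 3'UTR that GENCODE vM21 gives (GRCm38, chromosome 15, minus strand, 1004 bases, searched on the transcript strand only), the octamer CACTGCCA, the heptamers CACTGCC and ACTGCCA, which it contains, and their shared hexamer ACTGCC had no match. They were held by 3.56%, 11.1%, 9.41% and 26.0% of 10219 windows of that length from other genes. The offset hexamer CACTGC, complementary to bases 3 to 8 of the miRNA, matched at 2 places and was held by 29.2% of the windows. Both are shown with the hexamer in capitals (5′ to 3′ on the transcript strand, written as DNA).
chr15:81012955-81012978: ttccaggtccttCACTGCaaggaa
chr15:81012474-81012497: gtcccacctcccCACTGCatccac
One further match to bases 2 to 8 needed a G:U pair, a type of match held by 30.6% of windows. For the 4 sequences printed above, the longest uninterrupted complements in this 3'UTR had 7 bases for miR-34a-5p, miR-34b-5p and miR-449c-5p and 6 for miR-449a-5p, and 60.3%, 58.7%, 53.3% and 97.3% of windows held one as long. Elsewhere in the same transcript, outside the 3'UTR, the heptamer CACTGCC occurred at 2 places. Whether the bait holds the annotated sequence is not given in the labels, and a match or its lack describes these letters only.

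Other miRNAs known for links to p53 were set beside the family. Of 25 such miRNAs listed from general knowledge (direct targets, effectors and regulators of p53), 24 were in the table. Against the MS2 control 9 were tested. In differentiated cells 4 rose and 1 fell, where 57.4% of all names were higher and 21.9% lower. In undifferentiated cells 2 rose and 1 fell, where 43.2% were higher and 17.2% lower. The list's median log2 fold change was 1.04 and 0.18, against 2.37 and 1.16 for all names in the same order. miR-149-5p rose in both (3.45 ± 0.29 and 3.46 ± 0.29), as did miR-103-3p (3.43 ± 0.46 and 2.08 ± 0.46). miR-29a-3p rose in differentiated cells (4.07 ± 0.97), and miR-16-5p, which represses cell cycle genes, stood at -1.27 ± 0.67 in undifferentiated cells without passing (limma adjusted p = 0.114).

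Against input 16 of the list were tested. In differentiated cells 2 rose and 8 fell, where 31.1% of all names were higher and 30.8% lower. In undifferentiated cells 0 rose and 13 fell, where 23.3% were higher and 45.2% lower. The medians were -1.95 and -2.68, against -0.14 and -1.04 for all names. The largest changes were those of miR-30d-5p (-5.37 ± 0.32 and -5.13 ± 0.32) and miR-25-3p (-5.37 ± 0.68 and -5.08 ± 0.68), both known in human cells to target the p53 messenger RNA, then miR-145a-5p in differentiated (-3.90 ± 0.51) and miR-143-3p in undifferentiated cells (-4.36 ± 0.29). In input 17 were tested between the states, and 1 rose and 6 fell, where 16% of all names were higher and 46.3% lower. The falls included miR-125b-5p (-1.50 ± 0.34), miR-25-3p (-1.50 ± 0.33) and miR-29b-3p (-1.42 ± 0.38). The list's median there was -0.19, against -0.64 for all names.

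Between the MRTF-A eluates of the states 3 of 9 rose and 0 fell, where 23.7% of all names were higher and 14.8% lower. The list's median was 0.85, against 0.33 for all names. miR-22-3p (2.96 ± 0.30) and miR-149-5p (2.27 ± 0.29) were higher in differentiated cells, and miR-182-5p stood at 1.95 ± 1.08 without passing (limma adjusted p = 0.173). In the difference between the states of bait over MS2, 1 of 9 rose, where 8.28% of all names were higher and 4.73% lower. It was miR-22-3p (2.05 ± 0.43, limma adjusted p = 0.0139). miR-29a-3p (2.83 ± 1.37, adjusted p = 0.185) and miR-182-5p (1.47 ± 1.52, adjusted p = 0.561) did not pass, and the list's median was 0.72 against 0.14 for all names.

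The names whose profile was most like that of miR-34c-5p were mostly low ones seen with the bait. Likeness was Pearson's r of log2(CPM + 10) over the 18 libraries, among 299 tested names outside the family, and it largely reflects the contrast of bait against other libraries, which share depth and scaling. The 5 highest were miR-568 (r = 0.986), miR-504-3p (0.983), miR-1191b-5p (0.973), let-7b-5p (0.970) and miR-5623-5p (0.969). miR-568 averaged 216 CPM in differentiated and 193 CPM in undifferentiated MRTF-A eluates and had no read elsewhere, whereas let-7b-5p averaged 19891 and 45863 CPM there and 715 and 1715 CPM in input. Of the family, miR-34b-5p had r = 0.979, miR-449a-5p 0.957 and miR-34a-5p 0.885.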

How the data were processed

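Small RNA of C2C12 input and of miTRAP eluates was sequenced in 50 bp reads, per the labels. Per the submitters' processing notes, edgeR 3.18.1, featureCounts 1.4.6, Bowtie2 2.0.13 and cutadapt 1.4.2 were used on GRCm38/mm10, with settings and strand not stated. The authors deposited a signal, CPM after normalisation. Within a library the deposited values were whole multiples of the smallest one, which gave back whole reads (100% of values within 0.01 read), and the deposited scaling equals TMM factors over all 18 libraries. The log2 fold changes, p-values and FDR values in the authors' deposited table are the authors' own, per the file headers.

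Names were kept by filterByExpr on recovered reads and tested with limma 3.58.1 with a trend (R 4.3.3) on log2(CPM + 10), p-values being adjusted by Benjamini-Hochberg over all names tested, with a threshold of 0.05. The 6 inputs, the 12 eluates and all 18 libraries were fitted for input, eluate and bait against input comparisons. Alternatives were pseudocounts of 1 and 50, no filter, other scalings, recovered reads in DESeq2 1.42.0 and in edgeR 4.0.16, each library left out, and each kind of MS2 control. A comparison of 3 against 3 libraries cannot go below an exact p of 0.1, so read ratios were permuted within states, 0.5 read being added. The fits were tested on simulated data. Tables and figures were made in Python 3.11.15 (scipy 1.17.1, matplotlib 3.10.9).

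The text names the 4 members, every other miR-34 or miR-449 row, the 5 names most like miR-34c-5p and, of the p53-linked list, the 3 largest changes of each comparison. The members and lists were chosen with earlier results of these data known.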

Additional observations from a re-analysis of the deposited data

Results flagged for a closer look

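The fitted difference between the states in MRTF-A over MS2 control passed for miR-449a-5p, at -2.22 ± 0.57 on the log2 scale in differentiated minus undifferentiated cells (SE, limma adjusted p = 0.0248). It does not show that the gain over MS2 differs, since all 6 MS2 controls had no read and the gain is known only as a lower bound in each state. The value restates the difference between the MRTF-A eluates, with 66.9 to 174 CPM (81 reads) in differentiated and 429 to 573 CPM (142 reads) in undifferentiated cells. The adjusted p ranged from 0.00508 to 0.9998 over the alternatives, the highest with edgeR on recovered reads. It also missed the threshold with a pseudocount of 1, without the filter, with DESeq2, with either kind of MS2 control alone, without differentiated MRTF-A library B (0.0801) and without undifferentiated MS2 library C (0.0557).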

How the results depend on the processing

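The rise of the 3 miR-34 members with the bait, over MS2 and over input in both states, kept its direction and its call under every alternative run. For miR-34a-5p over MS2, and for miR-34b-5p over MS2 and over input, the call is no independent result. There the main fit tested them only through their MRTF-A eluates. Of 426 values of single miRNAs under alternatives, 385 kept direction and call, 19 lost a call, 5 gained one and 17 changed sign. No paired analysis was possible because the columns carry no replicate number that matches the labels. In input the count of members called was 1 and became 0 with no filter, library totals, RLE factors, TMM factors of the fitted libraries, edgeR and DESeq2, and 0 to 2 with a library left out. There miR-34c-5p turned to 0.057 (RLE), 0.089 (TMM of the fitted libraries), 0.12 (edgeR) and 0.12 (DESeq2). Between the MRTF-A eluates, miR-34a-5p turned to -0.30 (RLE), -0.52 (edgeR), -0.46 (DESeq2) and -0.17 (without undifferentiated MRTF-A library A), within -0.17 to 0.37 with a library left out, and miR-34b-5p to -0.40, -0.54 and -0.49 with the same tools and to between -0.18 and -0.05, of a range up to 0.28, without differentiated MRTF-A library A (-0.18) or B (-0.08) or undifferentiated MRTF-A library A (-0.10) or B (-0.05); DESeq2 called 2 members. In the difference between the states, members called were 1 (miR-449a-5p, against controls without a read), and 0 with a pseudocount of 1, no filter, edgeR and only MS2 libraries with few human-named reads, 2 with RLE factors, and 0 to 1 with a library left out. All names called there were 22, and 11 with a pseudocount of 1, 38 with 50, 2 with no filter, 14 with library totals, 3 with edgeR and 6 to 25 with a library left out (6 without differentiated MRTF-A library B, 14 without C). miR-34a-5p turned there to 0.14 (library totals) and 0.0045 (without undifferentiated MRTF-A library B), within -0.53 to 0.0045 with a library left out. Bait over input in differentiated cells called 189 names, and 307 with no filter, where more names are tested. The other causes were not tested. The MS2 controls limit what can be seen, since 1 read there is worth 11.9 to 34.3 CPM. miR-449a-5p and all family rows that are not members had no read in them.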
